A study of Mus musculus with 8 samples.

Results

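The 37 genes described here build, move or read out cilia, the hair-like projections of the cell that carry a microtubule core. They were chosen by name: axonemal dyneins, radial spoke and central apparatus proteins, tektins, assembly factors, the regulators of ciliary genes, proteins of the node cilium and basal body, intraflagellar transport genes and the sensors of left-right flow. Probe sets naming 1 of them alone were found for 34 of the 37, all of them on the MOE430v2 array (61 probe sets) and 10 also on the older U74Av2 array (12 probe sets), out of 18194 and 8251 genes with a probe set of their own. Pkd2 and Pkd1l1 have no named probe set in the array annotation used here. They could be named only through the study's own lists of probe sets it found reduced in these same samples, so their values stand apart and enter no count. Arl13b, a GTPase of the ciliary membrane, has no named probe set and was not analysed here.

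Embryos at E7.5 (embryonic day 7.5, late gastrulation) were compared with and without Foxa2, a forkhead transcription factor needed to form the node. The wild-type group held 2 pools, of 53 and 50 ICR embryos. The Foxa2 null group held 2 pools, of 53 and 48 embryos grown from Foxa2 null embryonic stem cells by tetraploid complementation. In that method a wild-type tetraploid host, here carrying green fluorescent protein, supplies the extra-embryonic tissues and the visceral endoderm. By the study's methods this visceral endoderm was kept with the null embryos, so the null pools held some wild-type host tissue. Sexes were mixed, the extra-embryonic region was cut away, and embryos ran from mid-streak to head-fold stages, with wild-type pool 2 younger on average by the study's staging. The labels give ICR as the strain of both groups, and the strain of the stem cells was not settled here. Because every null embryo came from stem cells in a host and every wild-type embryo did not, genotype and embryo origin cannot be told apart. Each of the 4 RNA extracts was hybridised to both arrays, so the arrays repeat each other technically and n stays 2 pools per genotype. With 2 pools against 2, an exact permutation test of a single gene cannot go below p = 0.333, and every p below is from limma's moderated test fitted across all probe sets of an array.

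Cilia of the mouse node are short and mostly single. Those in the middle of the pit rotate and drive a leftward flow of fluid, while cilia at the edge are thought to sense it, and the signal then reaches the left lateral mesoderm through Nodal. A motile cilium needs axonemal dyneins, which slide the outer microtubules, radial spokes, which regulate them, and assembly factors, which load them. Motile and non-motile cilia alike need intraflagellar transport, in which kinesin motors carry cargo to the tip and the dynein with the heavy chain Dync2h1 brings it back. Motile cilium genes are driven by the forkhead factor Foxj1, and cilium genes more widely by the RFX factors, which bind a promoter sequence called the X-box.

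Promoter sequence, which no expression value entered, was read first for what the genes share. RefSeq promoter windows (GRCm38.p6, 250 bases before to 50 after a start site) were at hand for 34 of the 37 genes, with 40 windows in all. An X-box, searched on both strands as GTNNCC, then NNN, then GNAAC, lay in a window of 6 of these 34 genes (17.6%), namely Ccno, Ift57, Pifo, Spag16, Tekt4 and Zmynd10, against 2.49% of all 27025 genes with a window. Among other motile cilium genes it lay in 8 of 34 (23.5%), among other genes of ciliary transport, the transition zone and the BBSome in 10 of 40 (25.0%), and in 0 of 7, 0 of 7 and 0 of 18 genes of the left-right signalling, node and notochord, and visceral endoderm lists. The forkhead sequence TGTTTAC, also on both strands, lay in 2 of the 34 genes (5.88%), Ak7 and Mlf1, against 4.05% of all genes. No X-box match overlapped a forkhead match. Matches are letters in a window and not measured binding, and cilium genes without one have none in this window only.

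4 windows are shown because their genes carry the contrasts described below: Pifo with matches to the X-box and lower signal in the null pools, Ift57 with a match and no lower signal on its brightest probe set, Mlf1 with the forkhead sequence, and Rpgrip1, the gene with the smallest adjusted p, with neither. They are written 5′ to 3′ along the gene's strand, with the matched letters in capitals. Pifo (chr3:106001448-106001747, minus strand) holds 2 sites, at -71 to -58 and at -20 to -7 from the start site, the second of which fits the pattern on both strands, and its other window holds none. In Ift57 (chr16:49699044-49699343, plus strand) the match is on the opposite strand at -87 to -74. The forkhead letters of Mlf1 (chr3:67373847-67374146, plus strand) lie at -116 to -110. The window of Rpgrip1 (chr14:52110653-52110952, plus strand) belongs to a start site inside the gene.
Pifo: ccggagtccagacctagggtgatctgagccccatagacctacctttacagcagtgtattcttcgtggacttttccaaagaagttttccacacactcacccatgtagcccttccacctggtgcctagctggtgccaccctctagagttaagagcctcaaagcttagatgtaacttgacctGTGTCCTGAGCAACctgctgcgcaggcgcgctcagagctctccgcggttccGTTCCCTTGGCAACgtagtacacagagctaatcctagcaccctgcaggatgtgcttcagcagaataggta
Ift57: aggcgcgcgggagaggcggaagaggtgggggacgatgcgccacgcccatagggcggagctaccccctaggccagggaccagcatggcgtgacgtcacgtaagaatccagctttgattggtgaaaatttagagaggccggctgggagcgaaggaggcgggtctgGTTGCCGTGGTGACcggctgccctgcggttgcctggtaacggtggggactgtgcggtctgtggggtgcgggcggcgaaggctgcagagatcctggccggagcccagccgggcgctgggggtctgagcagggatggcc
Mlf1: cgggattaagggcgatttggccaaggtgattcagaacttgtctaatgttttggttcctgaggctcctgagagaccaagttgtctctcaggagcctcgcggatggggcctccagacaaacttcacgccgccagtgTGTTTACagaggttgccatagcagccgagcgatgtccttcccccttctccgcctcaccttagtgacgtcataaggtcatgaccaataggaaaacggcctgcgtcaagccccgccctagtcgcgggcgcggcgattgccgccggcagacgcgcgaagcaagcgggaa
Rpgrip1: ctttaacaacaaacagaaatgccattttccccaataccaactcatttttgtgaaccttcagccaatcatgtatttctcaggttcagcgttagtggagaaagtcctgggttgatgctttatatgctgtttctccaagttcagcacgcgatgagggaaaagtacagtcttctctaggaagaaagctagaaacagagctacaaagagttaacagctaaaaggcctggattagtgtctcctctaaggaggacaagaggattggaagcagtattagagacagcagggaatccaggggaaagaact

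Array signals are MAS5 values, brightness on a linear scale set by the authors to a fixed trimmed mean, and are given here as log2. Median signals of the 4 arrays lay between 48 and 52.8 on U74Av2 and between 155 and 165 on MOE430v2. Differences are log2 ratios, Foxa2 null minus wild-type, each with its standard error. The dimmest 30% of probe sets were left out before testing, and a gene was called at an adjusted p (Benjamini-Hochberg, over all probe sets tested on the array) under 0.05. In pools of whole embryos, fewer cells of a type and less RNA per cell cannot be told apart. Foxa2 itself stood on MOE430v2 at 9.62 and 10.17 without the mutation and at 8.96 and 9.06 with it, a log2 ratio of -0.88 ± 0.21 (adjusted p = 0.141, limma), and on U74Av2 had -1.25 (adjusted p = 0.13, limma). It did not overlap between genotypes on either array and passed the threshold on neither alone, but fell in the average over both (-1.07 ± 0.20, adjusted p = 0.0308, limma). Whether its probes lie within the deleted part was not settled here. Null pools also held visceral endoderm of the wild-type host, and the part of that tissue in the remaining Foxa2 signal was not tested.

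On MOE430v2, 1 member, Rpgrip1, fell at the threshold and none rose; 0.244% of all 31526 tested probe sets were called lower and 0.19% higher. The 4 node cilium and basal body genes all lay below wild-type, with a median log2 ratio of -1.11, against 0.014 for the 6 transport genes and -0.39 for the 10 tested genes of the motile axoneme. The median over all 14180 genes tested was -0.015, and no difference between roles was tested. Of the 34 genes with a probe set, 25 were bright enough to be tested on MOE430v2: 19 lay below 0 (51.9% of all genes tested did) and 6 above. In 13 of the 25 (52.0%) both null pools lay below both wild-type pools, and in 2 both lay above, where 23.7% and 21.7% of all genes tested did so. 6 members were lower at an unadjusted p under 0.05 and 0 were higher, against 7.0% and 6.27% of all genes.

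The study itself picked Mlf1, Pifo and Cfap126 from these samples as genes to examine in the node, so their direction is not independent evidence, and without them the node cilium and basal body group is Rpgrip1 alone. The other members tested were 22, with a median of -0.25. 10 of the 22 (45.5%) were lower and 2 higher with no overlap (23.7% and 21.7% of all genes), and 3 were lower at an unadjusted p under 0.05 (7.0% of all genes). These 22 too were chosen with earlier results of these data known, so their shares are not independent evidence either. On U74Av2, 7 of 10 members were tested, none was called where 0.172% of all probe sets were called lower and 0.103% higher, and 0 reached an unadjusted p under 0.05. The share of all genes at such a p was 4.98% lower and 5.13% higher. The median there was -0.036, 4 of the 7 lay below 0 (51.3% of all genes), and 1, Mlf1, was lower without overlap while none was higher (21.1% and 19.2% of all genes). Much of U74Av2 is the transport group, with 4 of the 7 genes, and no axonemal dynein is named on it. For the 7 genes tested on both arrays, the values of each extract were also averaged over the arrays. No member was called then, where 1.06% of 5934 genes were called lower and 1.35% higher. At an unadjusted p under 0.05 there were 3 of the 7 lower, Mlf1, Rsph1 and Invs, and 0 higher, against 7.84% and 7.41% of the 5934 genes.

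**Figure D1:**
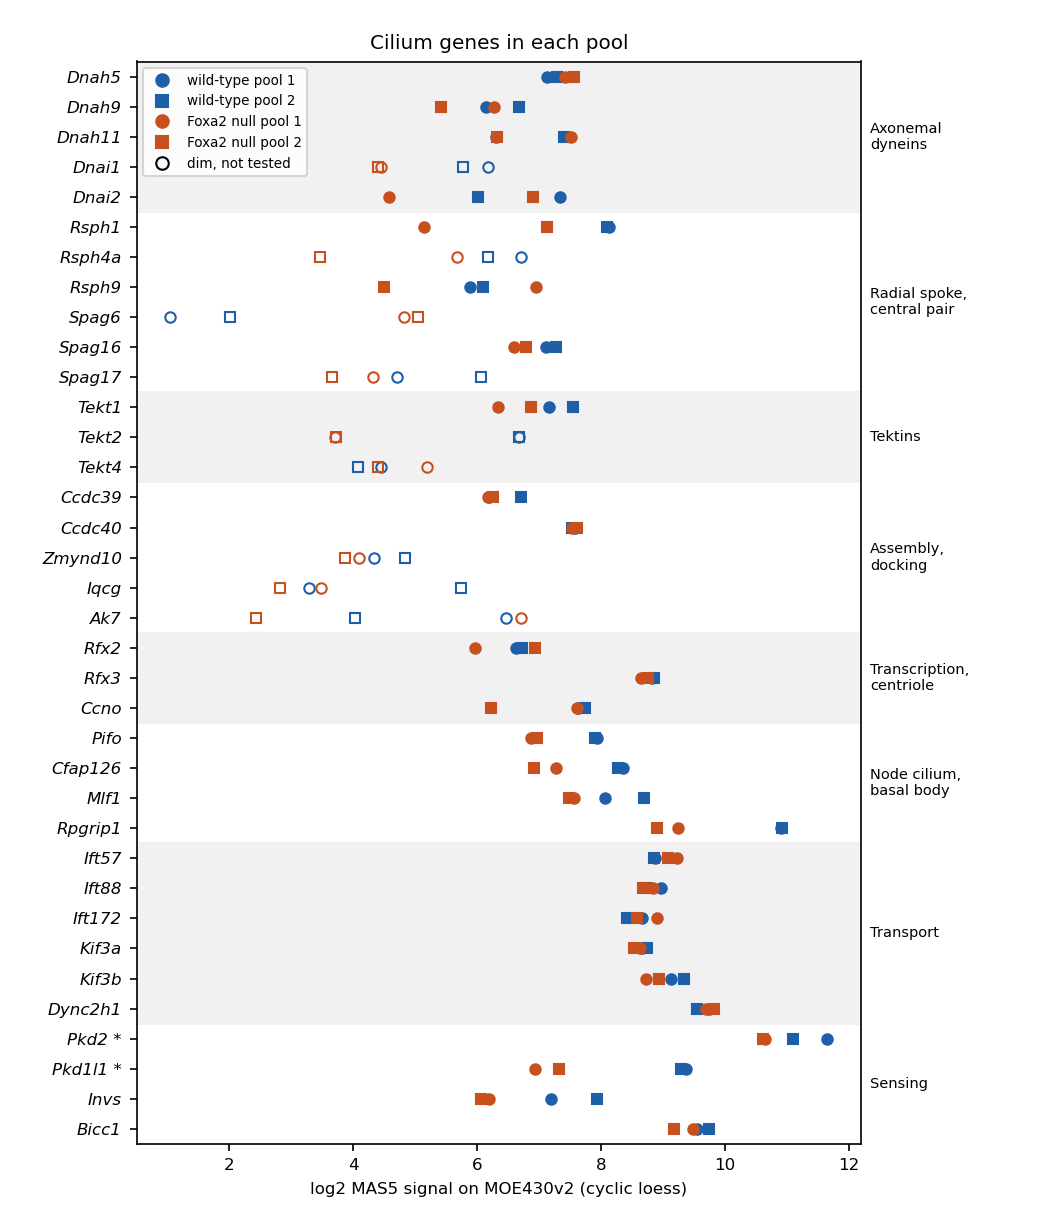
Log2 MAS5 signal on MOE430v2 (horizontal axis) of the probe set used for each cilium gene, with wild-type pools in blue, Foxa2 null pools in orange, pool 1 as circles and pool 2 as squares; hollow symbols mark genes too dim to be tested and asterisks the 2 genes named through the study's lists. Pools of the 2 genotypes stand apart for Rpgrip1, Cfap126, Pifo and Mlf1. They lie closer together for the 6 transport genes, though without overlap for Kif3a, Kif3b and Ift57.

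Rpgrip1, a protein of the ciliary transition zone best known from photoreceptors, had the smallest adjusted p of the members. Both wild-type pools were bright, at log2 signals of 10.91 and 10.93, and the null pools stood at 9.24 and 8.91, which on the linear scale are 1929 and 1950 against 606 and 481. Wild-type pools agreed closely and both null pools lay far below them, a log2 ratio of -1.84 ± 0.16 or 3.59-fold lower (adjusted p = 0.00434, limma). This is 1 of 4 probe sets of the gene. The other 3 were too dim to be tested, with log2 ratios of -0.27 (pools overlapping), -1.20 and -2.68 (both without overlap). Averaging all 4 probe sets gave -1.50 (adjusted p = 0.3, limma), and fitting without the intensity trend gave an adjusted p of 0.449, at which the call was lost. In the RefSeq annotation (GRCm38.p6) Rpgrip1 overlaps the neighbouring gene Supt16, a histone chaperone subunit, by 921 bases. Supt16 had log2 ratios of 0.27 and 0.21 on its 2 probe sets, opposite in sign.

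Cfap126, known as Flattop and needed for the placing of basal bodies, stood at 8.36 and 8.28 without the mutation against 7.27 and 6.92 in null pools. The pools did not overlap, and the log2 ratio was -1.23 ± 0.30 (adjusted p = 0.147, limma). Pifo, or Pitchfork, a protein of the basal body linked to cilium disassembly, stood at 7.93 and 7.91 against 6.88 and 6.97. The 2 pools of each genotype agreed within 0.1 log2 units, and the log2 ratio was -0.99 ± 0.33 (adjusted p = 0.264, limma). Neither gene has a probe set on U74Av2.

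Mlf1, first named from a chromosomal translocation in myeloid leukaemia, could be followed on both arrays. On MOE430v2 it stood at 8.07 and 8.70 in wild-type pools and at 7.56 and 7.48 in null pools (log2 ratio -0.86 ± 0.30, adjusted p = 0.306, limma). On U74Av2 the same extracts gave 4.91 and 5.30 against 3.28 and 4.72 (log2 ratio -1.11 ± 0.54, adjusted p = 0.557, limma). Both arrays placed both null pools below both wild-type pools, although by a narrow margin for null pool 2 on U74Av2, and the average over the arrays was -0.98 ± 0.34 (adjusted p = 0.184, limma).

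Pkd1l1 and Pkd2 encode polycystins, a receptor-like protein and a calcium channel that pair in node cilia. Their probe sets were named through the study's lists of reduced genes, so what follows describes a choice already made on these samples. Pkd1l1 stood at 9.38 and 9.29 in wild-type pools and at 6.94 and 7.32 in null pools, a log2 ratio of -2.20 ± 0.26, or 4.61-fold lower (adjusted p = 0.0117, limma). Its adjusted p was 0.0742 without wild-type pool 1, 0.0891 without wild-type pool 2 and 0.449 without the intensity trend. Pkd2 stood at 11.65 and 11.10 against 10.65 and 10.62 on MOE430v2 (log2 ratio -0.74 ± 0.17, adjusted p = 0.131, limma) and at 8.05 and 7.73 against 7.45 and 7.25 on U74Av2 (log2 ratio -0.54 ± 0.19, adjusted p = 0.37, limma). A second MOE430v2 probe set of Pkd2 had a log2 ratio of -0.54, and none of the 3 overlapped between genotypes.

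Invs, or inversin, which when lost in mice reverses the body's left-right axis, stood at 7.19 and 7.94 in wild-type pools and 6.20 and 6.06 in null pools on MOE430v2 (log2 ratio -1.44 ± 0.45, adjusted p = 0.251, limma). Another tested probe set had -0.80 and the last one, too dim to test, 0.48. On U74Av2 its pools overlapped at 5.64 and 5.81 against 5.56 and 5.81 (log2 ratio -0.036 ± 0.27), so the arrays did not give the same picture. Bicc1, an RNA-binding protein that acts downstream of flow, stood at 9.55 and 9.75 against 9.49 and 9.17 (log2 ratio -0.32 ± 0.19, adjusted p = 0.549, limma). Its other 2 probe sets gave -0.41 and -0.39, so all 3 pointed the same way without passing the threshold.

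**Figure D2:**
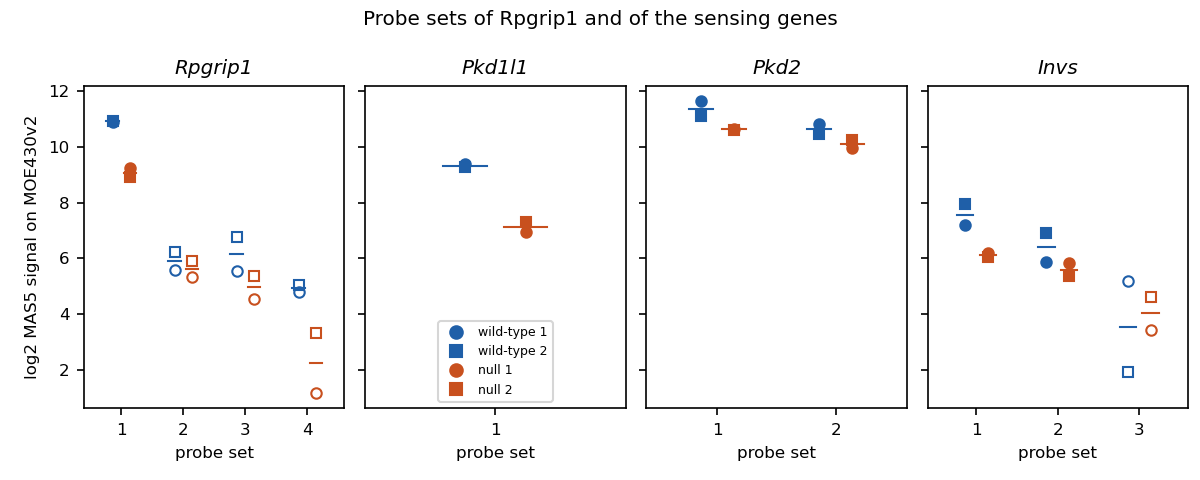
Log2 MAS5 signal on MOE430v2 (vertical axis) of every probe set of Rpgrip1, Pkd1l1, Pkd2 and Invs, brightest first, in wild-type (blue) and Foxa2 null (orange) pools, with short lines at the mean of the 2 pools and hollow symbols for probe sets too dim to be tested. Rpgrip1 was called on the first of its 4 probe sets, from about 10.92 to 9.08 by group mean, with the other 3 too dim to be tested, and Invs has probe sets on either side of no difference.

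Genes of the motile axoneme gave a mixed picture, and none passed the threshold. All 19 have a probe set on MOE430v2 and 10 were tested, of which 7 lay below 0 and 3 above, from -1.98 to 0.28. In 3 of the 10 (30%) both null pools lay below both wild-type pools, near the 23.7% of all genes. With the dimmest 50% of probe sets left out, 3 genes stayed and their median was 0.014. The filter takes the mean over all 4 pools, so a lower signal in null pools itself helps to remove a gene, and the medians of the genes that passed describe those genes alone. Dnai2 and Rsph9 passed through their wild-type pools, with null means of 5.74 and 5.72 below the dimmest mean tested, 5.77.

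Among dyneins, the outer-arm heavy chain Dnah5, brightest of the group, stood at 7.12 and 7.30 in wild-type pools and 7.42 and 7.57 in null pools (log2 ratio 0.28 ± 0.34, adjusted p = 0.788, limma). Both null pools lay slightly above both wild-type pools. The heavy chains Dnah9 (-0.57 ± 0.64) and Dnah11 (0.067 ± 0.56), the latter the gene of the iv left-right mutant, overlapped between genotypes, as did the intermediate chain Dnai2 (-0.93 ± 0.85). Dnai1, the other intermediate chain, was too dim to be tested, with 6.17 and 5.77 against 4.44 and 4.40.

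Rsph1, a radial spoke head protein, had the most negative ratio of the tested members, with null pools far apart and arrays that differed. On MOE430v2 it stood at 8.14 and 8.11 in wild-type pools and 5.15 and 7.13 in null pools (log2 ratio -1.98 ± 0.60, adjusted p = 0.23, limma). Null pool 1 lay nearly 2 log2 units below null pool 2. Leaving out null pool 2 gave -2.98 and a call (adjusted p = 0.02, limma), while leaving out null pool 1 gave -0.99. On U74Av2 the same extracts stood at 8.06 and 8.50 against 8.13 and 8.57, overlapping (log2 ratio 0.073 ± 0.22). The average over the arrays was -0.96 ± 0.32 (adjusted p = 0.178, limma).

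Of the other spoke and central apparatus genes, Spag16 stood at 7.11 and 7.27 against 6.60 and 6.79 without overlap (log2 ratio -0.50 ± 0.40, adjusted p = 0.671, limma). Its 3 dim probe sets gave -1.64, 1.27 and 0.54, in both directions. Rsph9 had -0.27 ± 0.89, with null pools at 6.95 and 4.49 on either side of the wild-type pools. Too dim to be tested were Rsph4a (6.71 and 6.17 against 5.68 and 3.47), Spag17 (4.71 and 6.06 against 4.33 and 3.66) and Spag6 (1.04 and 2.01 against 4.82 and 5.04), the last in the opposite direction.

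Tektins are filament proteins of the axonemal microtubules. Tekt1 stood at 7.16 and 7.55 in wild-type pools and 6.34 and 6.88 in null pools (log2 ratio -0.75 ± 0.42, adjusted p = 0.534, limma), and on U74Av2, below the filter, at 3.25 and 3.57 against 0.49 and 1.26. Tekt2 was below the filter on both arrays, with 6.69 and 6.68 against 3.70 and 3.73 on MOE430v2 and 2.41 and 1.72 against 0.68 and 1.20 on U74Av2. All 4 of these probe sets were lower in null pools without overlap. The 3 below the filter cannot be told from background, since detection calls were not analysed here. Tekt4 (4.45 and 4.08 against 5.19 and 4.39) overlapped.

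Assembly and docking genes hardly differed where they could be tested. Ccdc40, which with Ccdc39 sets the spacing along the axoneme, stood at 7.58 and 7.54 in wild-type and 7.53 and 7.61 in null pools (log2 ratio 0.014 ± 0.31, adjusted p = 0.99, limma), and Ccdc39 had -0.23 ± 0.55. Zmynd10, a dynein assembly factor, Iqcg, a subunit of the nexin-dynein complex, and Ak7, an adenylate kinase of cilia, were too dim to be tested, with log2 ratios of -0.60, -1.36 and -0.68. With the filter removed, none of the 9 dim members on MOE430v2 was called.

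Of the regulators, Rfx3, whose loss in mice disturbs node cilia and left-right asymmetry, stood at 8.82 and 8.85 in wild-type and 8.65 and 8.77 in null pools (log2 ratio -0.13 ± 0.20, adjusted p = 0.846, limma). Rfx2 had -0.23 ± 0.53 on its brightest probe set and 0.55 ± 0.81 on another. Ccno, a cyclin-like protein needed to make many centrioles in multiciliated cells, stood at 7.63 and 7.74 against 7.61 and 6.23 (log2 ratio -0.77 ± 0.47, adjusted p = 0.57, limma), a difference carried by null pool 2.

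Transport genes had medians close to 0 on both arrays. On MOE430v2, both null pools lay below both wild-type pools in 2 of the 6 (33.3%), Kif3a and Kif3b. In 1, Ift57, both lay above, where 23.7% and 21.7% of all genes tested were lower and higher in this way. On MOE430v2 the 6 tested genes ran from -0.41 to 0.28 with 3 below and 3 above 0, and on U74Av2 the 4 named genes ran from -0.23 to 0.079 with a median of -0.067. Dync2h1 stood at 9.74 and 9.56 in wild-type and 9.70 and 9.82 in null pools (log2 ratio 0.11 ± 0.16, adjusted p = 0.829, limma). The particle proteins Ift88 (-0.085 ± 0.21 on MOE430v2 and -0.17 ± 0.20 on U74Av2) and Ift172 (0.20 ± 0.23 and 0.079 ± 0.20) had differences smaller than their standard errors on both arrays. The kinesin-2 motor subunits were Kif3a, with -0.12 ± 0.21 and -0.23 ± 0.37, and Kif3b, with -0.41 ± 0.20 and 0.037 ± 0.33. The 4 MOE430v2 probe sets of Kif3b ran from -0.83 to 0.15. Ift57, with its X-box match, had 0.28 ± 0.19 on the brightest probe set, where both null pools lay above both wild-type pools, and -0.76 ± 0.41 on another. A p that misses the threshold does not show that these genes were equal, and differences well above the standard errors could be missed. In the simulated data described below, 2-fold changes were recovered at only 19.2% on MOE430v2 and 33.6% on U74Av2.

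**Figure D3:**
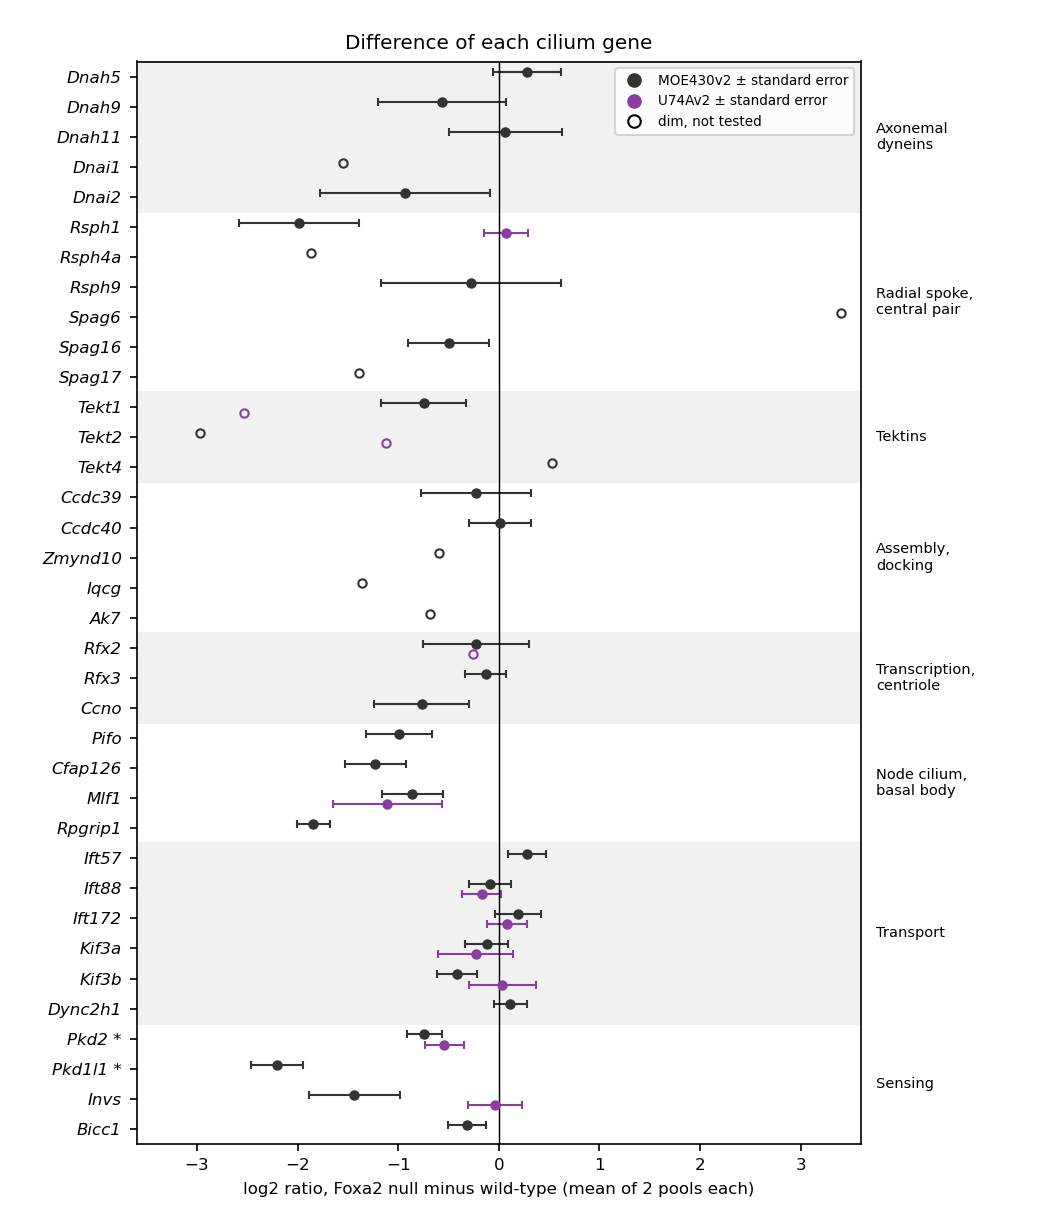
Log2 ratio of Foxa2 null minus wild-type pools (horizontal axis) with its standard error for each cilium gene, MOE430v2 in black and U74Av2 in purple; hollow symbols are genes too dim to be tested and asterisks mark genes named through the study's lists. Rpgrip1 lies at -1.84 and the 6 transport genes between -0.41 and 0.28, while Rsph1 and Invs differ between the arrays.

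Several genes were read by more than 1 tested probe set. On MOE430v2 this was so for 7 of the 34 genes, and in 4 of these 7 the probe sets lay on both sides of 0. On U74Av2 it was so for 1 gene, Ift88, whose probe sets gave -0.17 and 0.37. Where members were split in this way, the values above are those of the brightest probe set.

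The rest of the pathway was read from lists fixed by gene name. Of 43 other motile cilium genes, 36 were named and 27 tested on MOE430v2, with a median log2 ratio of -0.26 and none called. 10 of the 27 (37.0%) were lower and 3 higher without overlap, where 23.7% and 21.7% of all genes tested were. The lower count takes in Drc1 and Tekt3, whose null means lay below the dimmest mean tested, at 5.14 for Tekt3. The higher count takes in Hydin, whose wild-type mean lay below it. These shares and the median therefore describe only the genes that passed the filter. At an unadjusted p under 0.05, 3 of the 27 were lower and 2 higher, Drc1 and Hydin among them, against 7.0% and 6.27% of all genes. The 3 lower ones were Drc1, a nexin-dynein subunit (-2.04 ± 0.65, adjusted p = 0.256, limma), Nme5, a spoke protein (-0.77 ± 0.26), and Stk36, a kinase needed for the central pair (-1.19 ± 0.44). Drc1 passed the filter through its wild-type pools alone, with mean log2 signals of 7.66 in wild-type and 5.62 in null pools. The dimmest mean tested was 5.77, so its difference is no more than a description. The 2 higher ones were Hydin, a central pair protein (1.98 ± 0.82), and Cfap20, an axonemal protein (0.39 ± 0.13, and 0.64 ± 0.17 on U74Av2). Hydin passed the filter through its null pools alone (mean log2 signal 4.92 in wild-type and 6.90 in null pools, where the dimmest mean tested was 5.77), so its difference is no more than a description. Averaged over both arrays, Cfap20 rose (0.52 ± 0.11, adjusted p = 0.0469, limma). Both lie on chromosome 8, where the median gene had a log2 ratio of 0.35 on MOE430v2 (734 genes) and 0.32 on U74Av2 (344 genes), and no member of the 37 lies there. Other listed genes of that chromosome went both ways on MOE430v2. Dynlrb2 (-0.69), Tppp3 (-0.70), Dand5 (-1.87) and Gas8 (-0.023) lay below 0, and Bbs2 (0.35) and Dnaaf1 (0.15) above. The part of this shift in these values was not tested.

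Foxj1, the forkhead factor upstream of motile cilium genes, was below wild-type on average on both arrays and called on neither. On U74Av2 it stood at 6.63 and 7.0 in wild-type and 5.71 and 5.69 in null pools (log2 ratio -1.12 ± 0.24, adjusted p = 0.138, limma). On MOE430v2 it stood at 6.5 and 8.35 against 6.86 and 6.85 (log2 ratio -0.57 ± 0.57, adjusted p = 0.734, limma), overlapping, and without wild-type pool 2 the ratio turned to 0.35. The average over the arrays was -0.85 ± 0.34 (adjusted p = 0.268, limma). Dynlrb2, a dynein light chain expressed in motile ciliated cells, stood at 7.68 and 8.38 against 7.27 and 7.42 (-0.69 ± 0.34, adjusted p = 0.465, limma). The study listed Dynlrb2 as a known node marker reduced in these same samples, so its direction is not independent evidence.

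Of 47 other genes of transport, the transition zone and the BBSome (a coat that moves membrane proteins through cilia), 42 were tested on MOE430v2, none was called, and the median was -0.085. In 13 of the 42 (31.0%) both null pools were lower and in 7 higher, near the 23.7% and 21.7% of all genes tested. At an unadjusted p under 0.05 there were Ift122 (-0.70 ± 0.20, adjusted p = 0.214, limma) and Ift27 (-0.61 ± 0.25), both lower, and none higher. The shares of all genes at such a p were 7.0% lower and 6.27% higher. On U74Av2, 10 were tested and none was called, with a median of -0.080.

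On the left-right signalling list, 8 of 12 genes were tested on MOE430v2. Of these, 1, the Notch ligand Dll1, fell, where 0.244% of all tested probe sets were called lower. Dll1 stood at 11.82 and 11.66 against 10.60 and 10.85 (log2 ratio -1.01 ± 0.13, adjusted p = 0.0174, limma), and on U74Av2 had -0.78 ± 0.16 (adjusted p = 0.135, limma). At an unadjusted p under 0.05, 4 were lower and 2 higher, against 7.0% and 6.27% of all genes. The study listed Dll1 and Shh among genes reduced in these same samples, so their direction is not independent evidence. Shh also stands on the node and notochord list below. Dand5, the Nodal antagonist at the edge of the node that responds to flow, stood at 7.06 and 7.67 in wild-type and 5.31 and 5.68 in null pools (log2 ratio -1.87 ± 0.54, adjusted p = 0.208, limma). Its pools did not overlap and it did not pass the threshold. Dand5 passed the filter through its wild-type pools, with a null mean of 5.49 below the dimmest mean tested, 5.77. The secreted signal Shh stood at 9.85 and 9.50 against 7.97 and 8.52 (-1.44 ± 0.24, adjusted p = 0.0509, limma), had -0.94 ± 0.33 on U74Av2 and fell in the average over both arrays (-1.19 ± 0.23, adjusted p = 0.0317, limma). The Notch receptor Notch1 had -0.59 ± 0.21. Nodal (0.16 ± 0.25), Lefty2, a Nodal antagonist of the left side (0.54 ± 0.29), and Lefty1, an antagonist of the midline (-0.53 ± 0.32, on U74Av2), overlapped between genotypes, while on U74Av2 the 2 null pools of Nodal lay above both wild-type pools (0.35 ± 0.33). The Nodal co-receptors Cfc1 (0.49 ± 0.16) and Tdgf1 (2.21 ± 0.54) were higher without overlap at unadjusted p values under 0.05, although Cfc1 overlapped on U74Av2 (0.011 ± 0.23). Tdgf1 stood at 6.57 and 8.19 in wild-type and 8.91 and 10.26 in null pools, so the second pool was well above the first in both genotypes. Noto has no named probe set and was not analysed here.

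**Figure D4:**
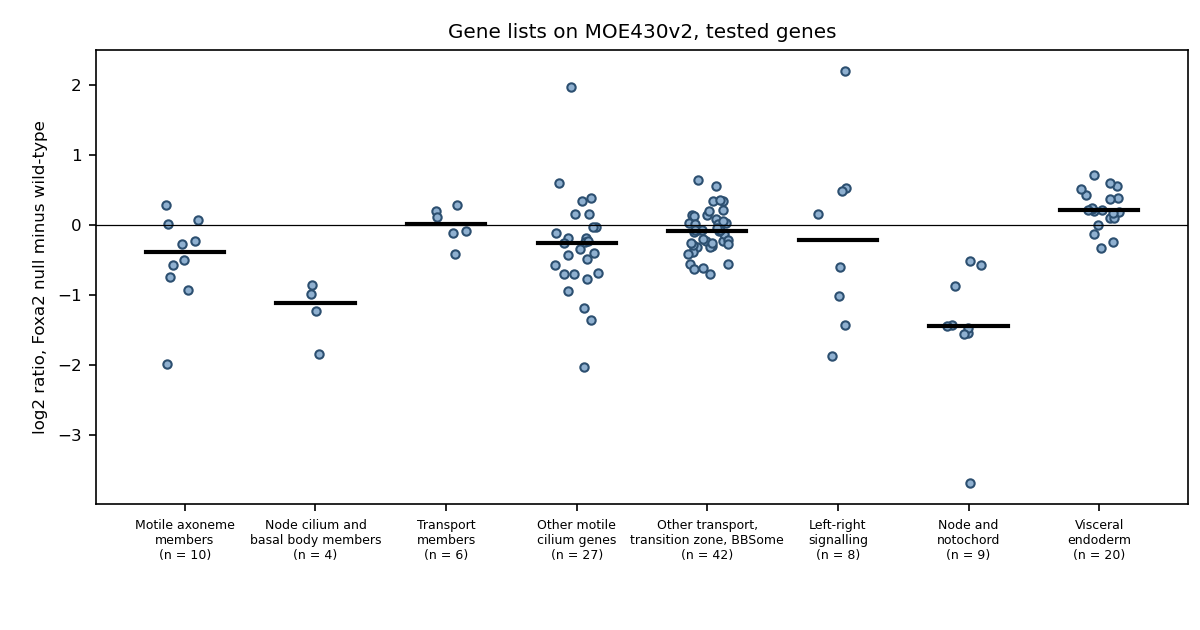
Log2 ratio of Foxa2 null minus wild-type (vertical axis) on MOE430v2 for each tested gene (points) of 3 groups of the cilium genes and 5 comparison lists, with thick lines at the medians and the number of genes under each name. Node cilium and basal body genes, 3 of which the study picked from these samples, have a median of -1.11, node and notochord genes -1.45, transport genes 0.014 and visceral endoderm genes 0.21. Most of the node and notochord genes shown were listed by the study as reduced in these samples.

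Markers of the cells in the pools were read beside these values, and their lists went different ways. Of 12 node and notochord genes, 9 were tested on MOE430v2, and all lay below 0 with a median of -1.45. 3 were called lower, Foxa1, Car3 and Cthrc1 (0.244% of all tested probe sets were). The summed signal of the named genes was 5608 and 5936 in wild-type and 2096 and 2328 in null pools. On U74Av2 it was 643 and 786 against 307 and 318. The study listed Foxa2, Foxa1, Shh, Chrd, Car3, Cthrc1 and Foxd4 as reduced in these same samples, so their direction is not independent evidence. Gsc, too dim to be tested on MOE430v2, was higher in null pools without overlap (5.14 and 2.49 against 5.74 and 6.66). The labels describe the tissue as epiblast, and the study's methods state that tetraploid-derived visceral endoderm was kept. The study also describes null epiblasts of this kind as not displacing that tissue and as looking enriched for its markers. Its part in the values here was not tested. All 20 named visceral endoderm genes were bright enough to be tested on MOE430v2. On that array, where 51.9% of all genes tested lay below 0, 17 of the 20 lay above 0 in null pools with a median of 0.21. Of these, 8 were higher at an unadjusted p under 0.05, where 6.27% of all genes were, and none was called. On U74Av2, 16 of 18 visceral endoderm genes lay above 0, with a median of 0.30. Their summed signal was 103055 and 109204 in wild-type pools and 137510 and 112923 in null pools, so that null pool 1 was the highest. On U74Av2 it was 10362 and 10070 against 14778 and 10275, with null pool 2 between the wild-type pools. Of 10 epiblast and mesoderm genes, all were tested, 6 lay above 0, the median was 0.046, and none was called. None of these lists had a summed signal near 0. The part of cell composition in the lower signal of the node cilium genes was not tested.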

How the data were processed

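Signals were deposited by the authors as MAS5 intensity values, scaled per array to a fixed trimmed mean (150 on U74Av2 and 500 on MOE430v2 by the values), from 2 wild-type and 2 Foxa2 null pools on each array. Detection calls and the study's probe-level tests were not analysed here. From the intensities, log2 (floor 0.1) was taken, with cyclic loess on MOE430v2. Control probe sets and the dimmest 30% were left out, and limma 3.58.1 (R 4.3.3; lmFit, eBayes with an intensity trend, two-sided, Benjamini-Hochberg over all probe sets tested) was fitted per array. The brightest probe set naming a gene alone stood for it. The fit was run on simulated data, with variances drawn from limma's own fitted trend and prior. There 4-fold changes were recovered at 75.2% on U74Av2 and 49.6% on MOE430v2, and 2-fold changes at 33.6% and 19.2%. Such data follow the model by construction, so they cannot show whether the model suits these pools. Array number limits the precision. Replicates are pools, so p-values measure the spread between pools, part of which may be technical.

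Members and lists were chosen with earlier results of these data known. Values per pool are given for members called, at an unadjusted p under 0.05 without overlap, picked by the study, or brightest in their role; members outside this rule that are given by pool were added after their values were seen. Alternatives covered normalization, offset, filter, trend, replicate block, probe set choice and each pool left out.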

Additional observations from a re-analysis of the deposited data

How the results depend on the processing

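The count of members lower on MOE430v2 was 1, Rpgrip1, and remained 1 under no normalization, quantile normalization, median centring, an offset before log2, no filter, and the dimmest 50% left out. It was 0 without the intensity trend, under which no probe set of either array was called, and 0 with the mean of a gene's probe sets. Counting in the members named through the study's lists, an alternative chosen after seeing the data, gave 2. Leaving out each pool gave 1 to 2, with Rsph1 added without null pool 2. For genes on both arrays the count was 0 in the main result and 0 to 2 with each pool left out, with Mlf1 and Rsph1 called without null pool 2. No member was called higher, and none on U74Av2, in any setting run.

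The replicate block gave 3 lower members on MOE430v2, Cfap126, Rpgrip1 and Rsph1, and 2 on both arrays, Mlf1 and Rsph1; over all probe sets of MOE430v2 it raised calls from 77 lower and 60 higher to 799 and 844. Same-numbered pools deviated together with r = 0.11 on U74Av2 and 0.0851 on MOE430v2 over probe sets, with only 2 pairs, so the numbers were taken as names and the pairing was not used.

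The motile axoneme median of -0.39 on MOE430v2 was -0.60 with no filter (19 genes), 0.014 with the dimmest 50% left out (3 genes), 0.014 with the mean of probe sets (5 genes), and -0.48 to -0.20 with each pool left out. The transport median of 0.014 was -0.0749 with the mean of probe sets and -0.067 to 0.12 with each pool left out. With a pool left out the sign turned for 7 of the 25 members tested on MOE430v2 and 5 of the 7 on U74Av2, for Dnai2, Rsph9, Dnah11 and Rfx2 among others. Among the genes recomputed under every alternative, it turned for Foxj1 (-1.50 to 0.35, the latter without wild-type pool 2), Ccdc40 (-0.026 to 0.054) and Nodal (-0.080 to 0.40) on MOE430v2, and Cfc1 (-0.094 to 0.12), Invs (-0.16 to 0.091) and Rsph1 (-0.15 to 0.30) on U74Av2. Invs on U74Av2 was also 0.0062, 0.0052 and 0.0053 under cyclic loess, quantile normalization and median centring. Nodal on MOE430v2 ran wider over all alternatives than with pools left out, from -0.080 to 1.11. The cause was not tested.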
